A study of Homo sapiens with 23 samples.

Results

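Genes that carry miRNA hairpins were followed by RNAseq in wild-type HCT116 cells, a human colorectal cancer cell line, and in 4 HCT116 lines lacking Argonaute (AGO) proteins. The set holds 36 host genes of the 57875 genes listed in the data, 20 that encode proteins and 16 that produce long non-coding RNA (lncRNA). It was taken from a list of symbols, each matched to its Ensembl identifier, and all 36 were found. The list was chosen with earlier results of these data known. The genotypes were wild type, AGO1-/-, AGO2-/-, AGO1-/- AGO2-/- and AGO1-/- AGO2-/- AGO3-/-, the last 2 of which are called double (*AGO1/2* in the plots) and triple (*AGO1/2/3*) knockout cells. Each line was sequenced as 3 samples at passages 12 to 18, giving 15 samples, and no treatment was applied. Every knockout is a single edited line made with CRISPR, so that genotype and line cannot be told apart. The study's methods call the 3 samples of a line biological replicates, while the labels do not say how they were separated. The p-values rest on the spread between samples within lines, estimated over all lines together. They do not measure the spread between separately edited lines.

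Many animal miRNAs are cut from the introns or exons of longer transcripts. RNA polymerase II makes the host transcript, Drosha excises a hairpin from it, Dicer trims the hairpin, and AGO proteins load a strand and use its seed, bases 2 to 8, to find complementary sites in mRNAs. Loss of AGO therefore removes the proteins that hold the mature strand, while the host transcript measured here is made upstream of that step. Protein-coding hosts mostly carry the hairpin in an intron and make a protein of their own, whereas for many lncRNA hosts the miRNA is the best known product.

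In the annotation, 68 hairpins lie within the 36 genes, 63 of them on the strand of the host, and every host holds at least 1 of these. In the protein-coding hosts, 28 of 30 same-strand hairpins are intronic and 2 lie wholly within an exon. In the lncRNA hosts 14 of 33 are intronic, 16 lie wholly within an exon and 3 span an exon boundary. Mature sequences (RefSeq, GRCh38.p14) were matched by symbol for 61 of the 63. They are shown for several of the hosts whose miRNAs share a seed and for several of those with large changes, with the seed in capitals. *MIR100HG* and *MIR99AHG* also share the seed of miR-100 and miR-99a and that of miR-125b, which are not shown. The 3 *PANK* genes carry miR-103a and miR-107, and the 3 *CTDSP* genes carry miR-26, so that paralogous hosts hold miRNAs with the same seed.
miR-103a-3p: aGCAGCAUuguacagggcuauga
miR-107: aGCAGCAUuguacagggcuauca
miR-26a-5p: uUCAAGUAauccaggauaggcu
miR-26b-5p: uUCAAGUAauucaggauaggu

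The let-7 seed is the one found in the most hosts, 5 in all, with *HUWE1* (miR-98 and let-7f), *WDR82* (let-7g), *MIR100HG* (let-7a), *MIRLET7BHG* (let-7a and let-7b) and *MIR99AHG* (let-7c).
let-7a-5p: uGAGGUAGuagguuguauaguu
let-7b-5p: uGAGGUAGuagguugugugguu
let-7g-5p: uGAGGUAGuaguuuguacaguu
miR-98-5p: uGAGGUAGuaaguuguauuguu

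Seeds also join coding to non-coding hosts. *SMC4* and *DLEU2* both carry miR-15 and miR-16, and *TMEM245* (miR-32) shares a seed with miR-92a of *MIR17HG*.
miR-15b-5p: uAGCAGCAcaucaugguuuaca
miR-15a-5p: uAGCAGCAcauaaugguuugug
miR-16-5p: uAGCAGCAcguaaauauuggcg
miR-32-5p: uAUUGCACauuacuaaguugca
miR-92a-3p: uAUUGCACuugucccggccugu

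The remaining sequences belong to hosts described further on, *SKA2* (miR-454 and miR-301a), *AOPEP* (miR-27b and miR-24), *MIR181A1HG* (miR-181b), *MIR222HG* (miR-221 and miR-222) and *MIR22HG* (miR-22).
miR-454-3p: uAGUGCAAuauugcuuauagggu
miR-301a-3p: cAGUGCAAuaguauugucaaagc
miR-27b-3p: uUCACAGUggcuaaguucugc
miR-24-3p: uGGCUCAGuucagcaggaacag
miR-181b-5p: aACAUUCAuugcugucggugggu
miR-221-3p: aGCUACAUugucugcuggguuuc
miR-222-3p: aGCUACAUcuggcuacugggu
miR-22-3p: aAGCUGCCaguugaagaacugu

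Sequencing gave 27709971 to 45271146 estimated counts per sample, with the 3 *AGO2* knockout samples and 1 triple knockout sample at 40419152 or more. A different mode of quantification is named in the headers for *AGO2* knockout samples, and mode and genotype cannot be told apart there. Wild-type replicate 2 stood apart from the other 2 wild-type samples for several hosts, low for *SKA2*, *SMC4* and *DLEU2* and high for *LPP* and *MIR22HG*, and the calls of these genes against wild type are given with and without it. Levels are given as counts per 1000000 (CPM), scaled for depth and composition, as the mean ± SD of 3 samples unless stated. *AGO1* RNA was lower in every line that lacks AGO1 (log2 fold change -1.84 to -2.01), and *AGO3* RNA was lower in triple knockout cells (-1.12). *AGO2* RNA fell by 0.51 on the log2 scale in *AGO2* knockout cells, was 339 ± 22.8 CPM in double knockout against 406 ± 45.6 CPM in wild-type cells, and was higher in triple knockout cells (538 ± 19.9 CPM), so that the RNA alone does not verify that label. The epithelial keratin genes *KRT8* and *KRT18* had 347 CPM or more in every sample, *CDX1* was at 0 in all samples, and *VIL1* did not exceed 10 counts. *CDH1*, encoding E-cadherin, went from 97.7 ± 31.9 CPM in wild-type to 8.57 ± 0.740 CPM in triple knockout cells, and the epithelial marker *EPCAM* from 213 ± 8.59 to 63.5 ± 1.50 CPM. *CDX2* and *KRT20* were also called lower there, whereas *KRT8* was called higher in double (log2 fold change 0.76, adjusted p = 0.000652) and triple knockout cells (0.41, adjusted p = 0.0157), and *KRT18* had a value of 0.28 in triple knockout cells (adjusted p = 0.0978). The 8 epithelial and intestinal markers summed to 1425 to 1501 CPM in wild-type and 1296 to 1751 CPM in triple knockout samples. The 3 fibroblast markers summed to 23.2 to 30.4 CPM in wild-type, 11.6 to 18.2 CPM in the *AGO1*, *AGO2* and double knockout and 26.5 to 29.6 CPM in the triple knockout samples, mostly *COL1A1*, and the leukocyte, endothelial and hepatocyte markers each summed to 3.21 CPM or less in every sample. The part of these shifts in the host gene results was not tested. In bulk RNA, fewer expressing cells and less RNA per cell cannot be told apart.

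Host genes differed widely in level. Per kilobase of merged exons, *VMP1*, an endoplasmic reticulum protein of autophagy that holds *MIR21*, was highest in wild-type cells at 52.4 ± 8.43 CPM per kilobase. *HUWE1*, a ubiquitin ligase, followed at 44.1 ± 3.19, and these 2 levels differed by less than the SD of *VMP1*. *COPZ1*, a subunit of the COPI vesicle coat, had 34.0 ± 1.76, *WDR82*, part of a histone methyltransferase complex, 28.5 ± 2.85, and *SMC4*, a core condensin subunit, 25.4 ± 7.73 CPM per kilobase. The last pair differed by less than the SD of *SMC4*. Among the lncRNA hosts only *MIR222HG* (15.3 ± 3.85 CPM per kilobase) stood among the 10 highest. *MIR100HG* ranked 18th per kilobase of merged exons, and 2nd when its canonical transcript gave the length, so the rank of a host with many isoforms rests on the length used. *MIR99AHG* was lowest of the genes tested, with 3 to 11 counts per sample. *MIR155HG*, the precursor of miR-155, had 1 count in a single wild-type sample and 0 in the other samples, a level at or under the floor of 3 counts per sample, and was not tested.

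Differences between lines were tested for 22842 genes, including all 20 protein-coding hosts and 15 of the 16 lncRNA hosts, and a gene was called at an adjusted p of 0.05 or less in edgeR's quasi-likelihood test. Calls among the hosts were most frequent in triple knockout cells. There, 11 protein-coding hosts rose and 2 fell, and 7 lncRNA hosts rose and 1 fell. Of all genes tested, 40.1% were called in this comparison, with 20.3% higher and 19.8% lower. Among all protein-coding genes 48.1% were called (26.6% higher, 21.5% lower), and among all lncRNA genes 24.4% (7.27% higher, 17.2% lower). The hosts stood at 65% and 53.3% called. They were also measured at higher levels than their classes, with medians of 108 against 20.2 CPM for protein-coding and 8.50 against 0.751 CPM for lncRNA genes. The median standard error of the log2 fold change was 0.11 against 0.15 and 0.17 against 0.29, and the part of this in the shares called was not tested. For lncRNA hosts the split was mostly upward, while lncRNA genes at large were more often called lower. The median log2 fold change was 0.45 for protein-coding and 0.35 for lncRNA hosts, against 0.04 over all protein-coding and -0.13 over all lncRNA genes. A further 28 tested miRNA hosts outside the list, of both classes, had 8 called higher and 7 lower. Their median log2 fold change was 0.10, against 0.40 over all listed hosts. The groups did not overlap for 15 of the 20 protein-coding and 10 of the 15 lncRNA hosts, against 57.7% of protein-coding and 35.0% of lncRNA genes. Scaling by total counts alone shifted the median of all genes by -0.14 and left 36.7% of the calls higher in place of 50.7%, and with it 9 protein-coding hosts were higher and 3 lower, and 5 lncRNA hosts higher and 2 lower.

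In the single and double knockouts the counts were smaller. *AGO1* knockout cells had 1 protein-coding host higher and 0 lower, where 9.55% of protein-coding genes were called (2.62% higher, 6.93% lower), and had 2 lncRNA hosts higher and 3 lower, where 5.86% of lncRNA genes were called (3.16% higher, 2.70% lower) and 8.68% of all genes. *AGO2* knockout cells had 4 protein-coding hosts higher and 0 lower, against 22.9% of protein-coding genes called (11.4% higher, 11.5% lower). They had 2 lncRNA hosts higher and 2 lower, against 11.4% of lncRNA genes (2.43% higher, 8.97% lower) and 19.3% of all genes. Where 0 protein-coding hosts were lower, 1 in each line had a lower value at an unadjusted p under 0.05, and DESeq2 called 0. Double knockout cells had 5 protein-coding hosts higher and 3 lower, against 20.7% of protein-coding genes (10.6% higher, 10.2% lower), with 1 lncRNA host higher and 1 lower, against 8.31% of lncRNA genes (3.34% higher, 4.96% lower) and 16.7% of all genes. In the *AGO1* and the *AGO2* knockout, 5.0% and 20.0% of the protein-coding hosts were called, within 1 gene of the shares of protein-coding genes at large. DESeq2 called 7 in *AGO2* knockout cells, all higher, and the share of all genes that it called was not computed. Of its calls over all genes there, 51.9% were higher, against 44.3% with edgeR.

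Total counts as the only scaling lowered the share of higher calls over all genes in these lines as well, from 36.6% to 20.5% in *AGO1* knockout, from 44.3% to 16.9% in *AGO2* knockout and from 50.1% to 34.9% in double knockout cells, and shifted the median by -0.12 in *AGO2* knockout cells. The protein-coding hosts then split into 1 higher and 1 lower, 1 and 1, and 3 and 3 in these lines, and the lncRNA hosts into 1 and 3, 2 and 2, and 0 and 1.

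The triple knockout was also set against the double knockout. Here 10 protein-coding hosts were higher and 2 lower, against 27.4% of protein-coding genes (16.5% higher, 10.8% lower), and 5 lncRNA hosts were higher and 1 lower, against 11.9% of lncRNA genes (3.05% higher, 8.89% lower) and 22.0% of all genes. Comparisons with wild type share the wild-type samples, and this one shares its knockout samples with 2 of them. Calls of at least 2-fold were few. For protein-coding hosts they numbered 0 in *AGO1* knockout (3.08% of protein-coding genes), 0 in *AGO2* knockout (5.39%), 2 in double knockout (6.06%), 6 in triple knockout (16.5%) and 2 in the triple against the double knockout (6.78%). For lncRNA hosts they numbered 1 (3.16% of lncRNA genes), 1 (5.88%), 0 (4.32%), 2 (14.2%) and 2 (6.17%) in the same order.

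**Figure D1:**
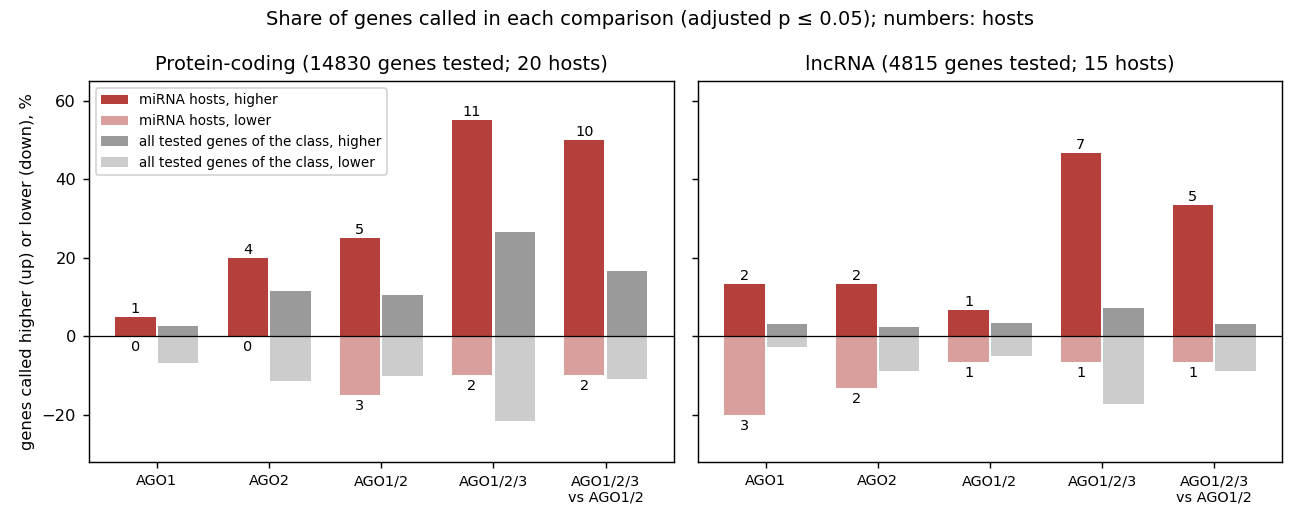
Percentage of genes called higher (up) and lower (down) at an adjusted p of 0.05 or less in each comparison, for miRNA host genes (red) and for all tested genes of the same class (grey), protein-coding on the left and lncRNA on the right. The numbers on the red bars are hosts, with 11 protein-coding and 7 lncRNA hosts higher in triple knockout cells.

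The 2 classes of host were also counted by line. Across the 4 comparisons with wild type, 4 protein-coding hosts were called in 0 lines, 8 in 1 line, 6 in 2 lines and 2, *TMEM245* and *CTDSPL*, in 3 lines. Of the lncRNA hosts, 3 were called in 0 lines, 5 in 1 and 7 in 2. The number of lines with a call was not counted over all genes. These counts therefore have no share over all genes beside them, and recurrence was not tested as a trait of the hosts. lncRNA hosts gave 5 of the 6 host calls in *AGO1* knockout cells and protein-coding hosts 8 of the 10 in double knockout cells. The difference between the classes was not tested. The classes also differed in level and in standard error, as given above.

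**Figure D2:**
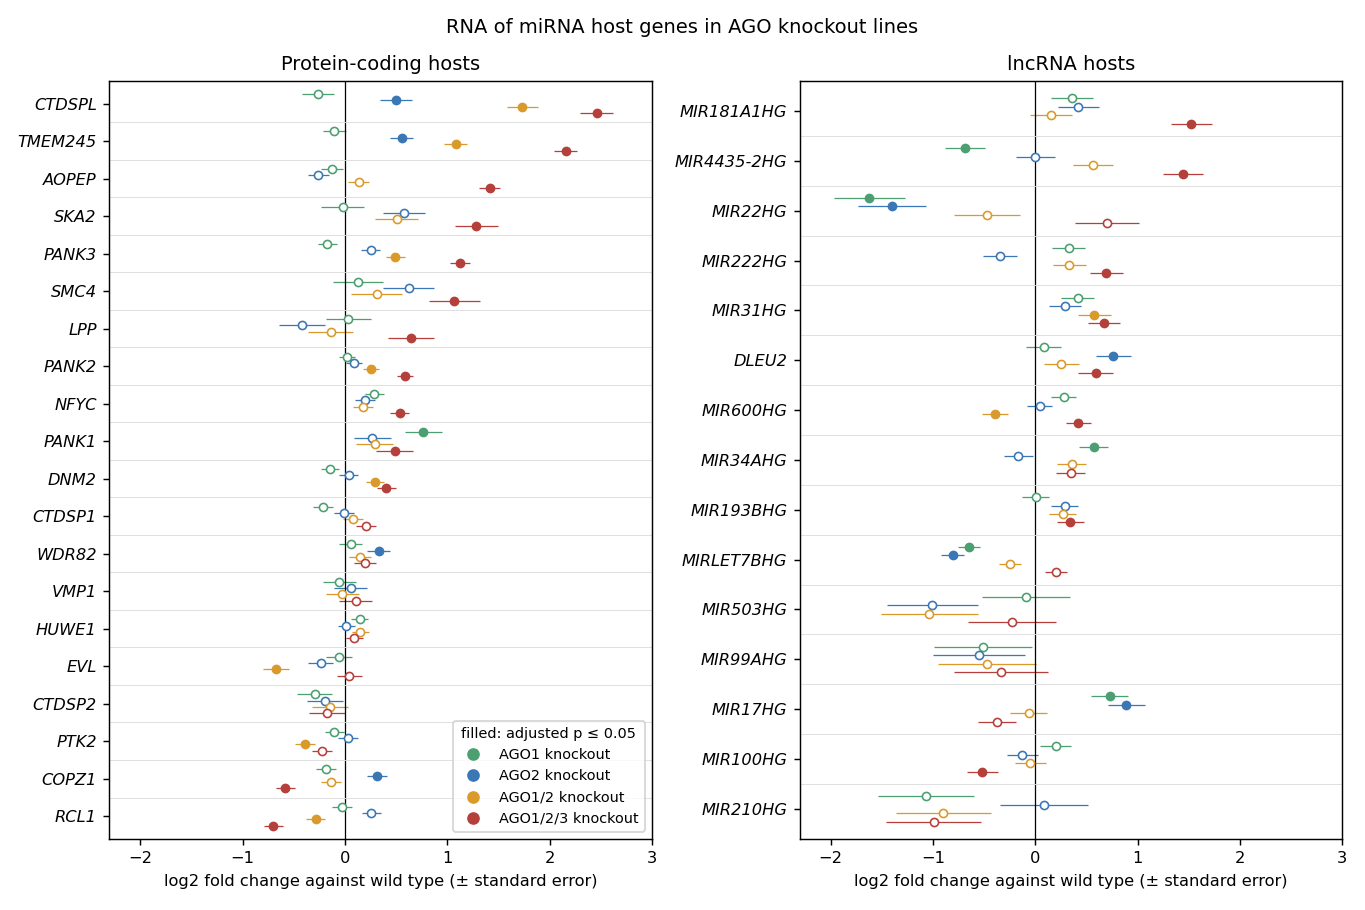
Log2 fold change against wild type (horizontal axis) with its standard error for each of the 20 protein-coding and 15 tested lncRNA hosts, ordered by their value in triple knockout cells. Colours give the knockout line and filled points an adjusted p of 0.05 or less. *CTDSPL* and *TMEM245* lie farthest to the right, and *MIR22HG* lies farthest to the left, in *AGO1* and *AGO2* knockout cells.

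The *CTDSP* family encodes small phosphatases that act on the C-terminal domain of RNA polymerase II, and only *CTDSPL* of its 3 members was called in any comparison. *CTDSPL* (ENSG00000144677; chromosome 3, 37861880 to 37984469, hg38), which holds *MIR26A1* in an intron, had 39.1, 22.7 and 34.3 CPM in the 3 wild-type samples, 28.5, 25.4 and 26.3 in *AGO1* knockout, 41.2, 49.6 and 45.1 in *AGO2* knockout, 99.1, 112 and 109 in double knockout and 162, 180 and 188 in triple knockout samples. The double and triple knockout samples all lay above the other lines without overlap. The level was higher in *AGO2* (log2 fold change 0.50, standard error 0.15, adjusted p = 0.0341), double (log2 fold change 1.74, standard error 0.16, adjusted p = 2.46e-06) and triple knockout cells (log2 fold change 2.46, standard error 0.16, adjusted p = 1.74e-08), and it was higher again in triple than in double knockout cells (log2 fold change 0.72). The call in *AGO2* knockout cells was lost when wild-type replicate 2, the lowest wild-type sample, was left out (0.28, adjusted p = 0.138), and in 8 other settings, which here and below are other scalings, filters on low counts, DESeq2, a term for the replicate number, fewer lines, or a sample left out. *CTDSP1*, the host of *MIR26B*, had 46.5 ± 4.07 CPM in wild-type and 53.8 ± 2.69 CPM in triple knockout cells (adjusted p = 0.0993). *CTDSP2*, the host of *MIR26A2*, had 103 ± 8.18 and 90.8 ± 7.20 CPM (adjusted p = 0.455). The differences among the 3 genes were not tested.

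*TMEM245* (ENSG00000106771; chromosome 9, 109015135 to 109119947), a membrane protein gene with *MIR32* in an intron, is among the genes that the study took up for qPCR, chosen for AGO2 eCLIP clusters in their 3′ UTR. It had 98.2, 76.8 and 111 CPM in the 3 wild-type samples, 91.2, 89.5 and 85.5 in *AGO1* knockout, 138, 142 and 140 in *AGO2* knockout, 199, 199 and 208 in double knockout and 404, 415 and 456 in triple knockout samples. Samples of the *AGO2*, double and triple knockout lines lay above the wild-type samples, each line above the one before. *TMEM245* was higher in *AGO2* (log2 fold change 0.56, standard error 0.11, adjusted p = 0.00518), double (log2 fold change 1.08, standard error 0.11, adjusted p = 1.04e-05) and triple knockout cells (log2 fold change 2.16, standard error 0.12, adjusted p = 3.22e-09), and higher in the triple than in the double knockout (1.07). These calls were kept in every other setting tried.

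Pantothenate kinases catalyze the first step of coenzyme A synthesis, and all 3 *PANK* hosts were called higher in triple knockout cells. *PANK3* (ENSG00000120137; chromosome 5, 168548495 to 168579368), with *MIR103A1*, had 158, 150 and 174 CPM in the 3 wild-type samples, 154, 137 and 136 in *AGO1* knockout, 181, 203 and 189 in *AGO2* knockout, 226, 228 and 224 in double knockout and 321, 350 and 378 in triple knockout samples. All double and triple knockout samples exceeded all wild-type samples. The increase was 0.49 in double (adjusted p = 0.00198) and 1.12 in triple knockout cells (standard error 0.09, adjusted p = 2.67e-07) on the log2 scale. *PANK2*, with *MIR103A2*, went from 41.7 ± 2.92 CPM in wild-type to 49.7 ± 1.78 in double and 62.7 ± 2.39 CPM in triple knockout cells (log2 fold change 0.59, standard error 0.08, adjusted p = 2.98e-05). Its smaller call in double knockout cells (log2 fold change 0.25) was lost in 20 other settings. *PANK1*, with *MIR107*, was least abundant and was the only protein-coding host called in *AGO1* knockout cells, at 16.5 ± 4.81 against 9.70 ± 1.99 CPM (log2 fold change 0.77, standard error 0.18, adjusted p = 0.0164). That call was lost without wild-type replicate 1 (adjusted p up to 0.13 over the 3 settings that lost it) or *AGO1* knockout replicate 1, whose 22.1 CPM was the highest value of the gene, and its call in triple knockout cells (adjusted p = 0.0448) was lost in 18 settings, with values of 0.34 to 0.49. The *PANK1* value in triple knockout cells was also below the median of the 16 tested genes within 1 Mb, 0.75.

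**Figure D3:**
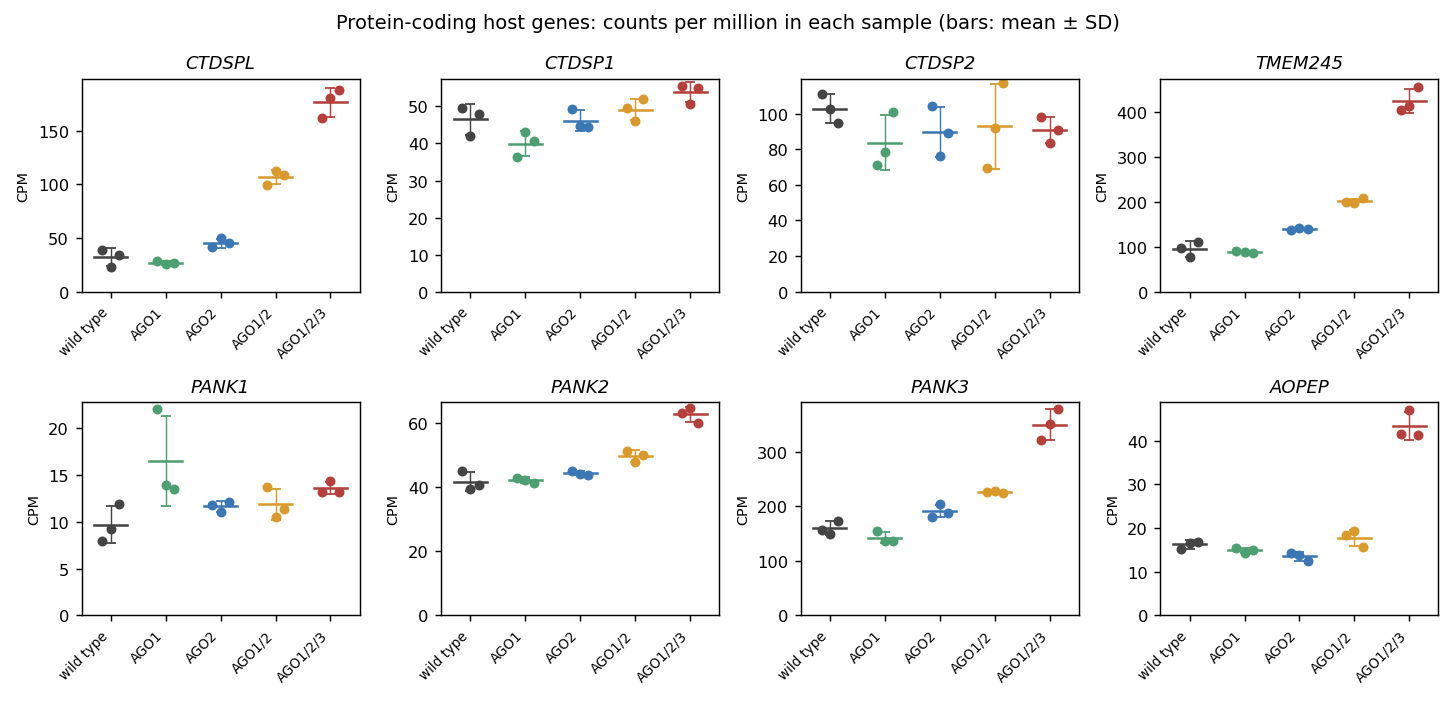
CPM of 8 protein-coding hosts in each of the 15 samples, with points for samples and bars for mean ± SD of 3 samples per line. *CTDSPL*, *TMEM245* and *PANK3* climb from *AGO2* to double to triple knockout cells, *AOPEP* rises in triple knockout cells, and *CTDSP1* and *CTDSP2* stay between 36.4 and 55.5 and between 69.4 and 117 CPM.

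*AOPEP* (ENSG00000148120; chromosome 9, 94726604 to 95151793), encoding aminopeptidase O, contains the *MIR23B*, *MIR27B* and *MIR24-1* cluster on its strand. The gene had 15.2, 16.7 and 16.9 CPM in the 3 wild-type samples, 15.4, 14.3 and 15.0 in *AGO1* knockout, 14.4, 13.9 and 12.4 in *AGO2* knockout, 18.3, 19.4 and 15.8 in double knockout and 41.6, 47.0 and 41.4 in triple knockout samples. Values of the first 4 lines lay between 12.4 and 19.4 CPM, and the triple knockout samples were all at 41.4 CPM or more. The increase was 1.41 against wild type (standard error 0.10, adjusted p = 6.19e-08) and 1.28 against double knockout cells (standard error 0.10, adjusted p = 6.97e-07). Of the 36 hosts, 26 overlap another annotated gene, 21 of them on the opposite strand, and the strand setting of the quantification is not given in the sources used here. *AOPEP* overlaps 4 genes on its strand and 2 on the other, of which the highest opposite-strand gene had 24.7 CPM on average.

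Genes of cell division were represented by *SKA2*, a spindle and kinetochore protein with *MIR454* and *MIR301A*, and by *SMC4*, with *MIR15B* and *MIR16-2*. *SKA2* (ENSG00000182628; chromosome 17, 59109857 to 59155260) had 73.2, 39.9 and 73.3 CPM in the 3 wild-type samples, 66.7, 72.9 and 44.1 in *AGO1* knockout, 86.1, 97.9 and 94.1 in *AGO2* knockout, 100, 74.2 and 90.3 in double knockout and 143, 149 and 162 in triple knockout samples. *SMC4* (ENSG00000113810; chromosome 3, 160399274 to 160434954) had 245, 134 and 243 CPM in the 3 wild-type samples, 277, 263 and 140 in *AGO1* knockout, 290, 341 and 328 in *AGO2* knockout, 313, 199 and 259 in double knockout and 420, 412 and 472 in triple knockout samples. Wild-type replicate 2, *AGO1* knockout replicate 3, *AGO2* knockout replicate 1 and double knockout replicate 2 were the lowest samples of their lines for both genes. The triple knockout samples lay above all other samples. The genes were higher in triple knockout cells than in wild-type cells (*SKA2*, log2 fold change 1.28, standard error 0.21, adjusted p = 0.000182; *SMC4*, log2 fold change 1.07, standard error 0.25, adjusted p = 0.00301). Without wild-type replicate 2 the log2 fold changes were 1.02 and 0.81, and both stayed called. *SMC4* overlaps 3 protein-coding genes on the opposite strand, the highest with 69.4 CPM on average.

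*LPP* (ENSG00000145012; chromosome 3, 188153284 to 188890671), a focal adhesion protein with *MIR28* in an intron, had 162, 249 and 151 CPM in the 3 wild-type samples, 146, 186 and 244 in *AGO1* knockout, 164, 127 and 130 in *AGO2* knockout, 125, 179 and 207 in double knockout and 316, 306 and 259 in triple knockout samples. Wild-type replicate 2 was the highest of its line here, opposite to its place for *SKA2* and *SMC4*, and the triple knockout samples lay above it. *LPP* was called higher in triple knockout cells (log2 fold change 0.65, standard error 0.22, adjusted p = 0.0294). Without wild-type replicate 2 the value was 0.88. The call was lost with total counts as the only scaling and when wild-type replicate 1 or 3 or triple knockout replicate 1 or 2 was left out (0.48 to 0.60 on the log2 scale).

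*RCL1* and *COPZ1* were the 2 protein-coding hosts that fell in triple knockout cells. *RCL1* (ENSG00000120158; chromosome 9, 4792944 to 4885917), a factor of ribosomal RNA processing with *MIR101-2* in an intron, had 28.2, 29.9 and 30.1 CPM in the 3 wild-type samples, 30.3, 27.8 and 28.4 in *AGO1* knockout, 33.0, 39.4 and 33.0 in *AGO2* knockout, 24.1, 24.0 and 24.3 in double knockout and 16.7, 18.8 and 18.9 in triple knockout samples. The triple knockout samples were below all others. The difference was -0.70 against wild type (standard error 0.09, adjusted p = 2.97e-05) and -0.41 against double knockout cells (adjusted p = 0.0054). The 24 tested genes within 1 Mb of *RCL1* had a median of 0.84 against wild type, the highest median around any host. *COPZ1*, with *MIR148B*, went from 133 ± 6.86 to 88.8 ± 11.2 CPM (log2 fold change -0.58, standard error 0.10, adjusted p = 0.0002), whereas in *AGO2* knockout cells it was called higher at 165 ± 5.10 CPM, a call lost in 11 other settings. *RCL1* was also called lower in double knockout cells (log2 fold change -0.29), which 16 other settings did not call.

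*NFYC*, a subunit of the transcription factor NF-Y with *MIR30E* and *MIR30C1*, rose from 35.9 ± 1.30 to 52.0 ± 3.90 CPM in triple knockout cells (adjusted p = 0.000395), and *DNM2*, the membrane-severing GTPase dynamin 2 with *MIR638* in an intron, from 118 ± 13.6 to 156 ± 4.98 CPM (adjusted p = 0.00241). *EVL*, an actin regulator with *MIR342*, fell in double knockout cells, to 7.22 ± 0.604 from 11.5 ± 0.171 CPM (log2 fold change -0.68, standard error 0.13, adjusted p = 0.00167), and was 11.9 ± 1.54 CPM in triple knockout cells, higher than in the double knockout (log2 fold change 0.72, standard error 0.13, adjusted p = 0.000733). Both calls were kept in every other setting tried. *PTK2*, the focal adhesion kinase gene, fell by 0.39 on the log2 scale in double knockout cells (adjusted p = 0.0107). The 19 tested genes within 1 Mb of it, *AGO2* among them, had a median of -0.40 there. *WDR82* was called higher in *AGO2* knockout cells alone (log2 fold change 0.33), a call lost in 16 other settings. *HUWE1*, *VMP1*, *CTDSP1* and *CTDSP2* were called in 0 comparisons by edgeR and by DESeq2, 2 of their 20 values having an unadjusted p under 0.05, and *HUWE1* had standard errors of 0.08 throughout, with levels of 784 ± 56.7 CPM in wild-type and 834 ± 10.9 CPM in triple knockout cells.

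Among the lncRNA hosts, *MIR181A1HG* (ENSG00000229989; chromosome 1, 198777861 to 198937471), which spans *MIR181A1* and *MIR181B1*, had the largest value in triple knockout cells, above that of *MIR4435-2HG* by less than the standard error. It had 5.29, 5.13 and 3.23 CPM in the 3 wild-type samples, 4.36, 5.44 and 7.70 in *AGO1* knockout, 6.31, 6.37 and 5.60 in *AGO2* knockout, 4.55, 5.31 and 5.34 in double knockout and 13.6, 13.9 and 11.8 in triple knockout samples. The triple knockout samples were above all others. The *AGO2* knockout samples also lay above the wild-type samples, a difference that was not called, and the *AGO1* and double knockout samples overlapped with wild type. The difference was 1.52 against wild type (standard error 0.20, adjusted p = 2.24e-05) and 1.37 against double knockout cells (standard error 0.20, adjusted p = 0.000163), and both calls were kept in every other setting tried.

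*MIR4435-2HG* (ENSG00000172965; chromosome 2, 111006015 to 111523376) has a near-identical copy, *CYTOR*, on the same chromosome, and how reads were divided between the 2 loci cannot be checked from gene counts. *MIR4435-2HG* had 22.0, 16.1 and 16.3 CPM in the 3 wild-type samples, 11.1, 12.3 and 10.4 in *AGO1* knockout, 13.3, 24.0 and 17.1 in *AGO2* knockout, 23.1, 26.6 and 30.9 in double knockout and 41.4, 53.5 and 53.5 in triple knockout samples. *AGO1* knockout samples were the lowest and triple knockout samples the highest, each without overlap with wild type. It was lower in *AGO1* (log2 fold change -0.68, standard error 0.20, adjusted p = 0.0422) and higher in triple knockout cells (log2 fold change 1.45, standard error 0.19, adjusted p = 2.7e-05). *CYTOR* changed by 1.53 in triple knockout cells (adjusted p = 8.96e-05), and the sum of both loci went from 34.7 ± 7.69 to 97.3 ± 13.0 CPM. The lower call in *AGO1* knockout cells was lost in 10 other settings, among them without wild-type replicate 1 or any single *AGO1* knockout sample. *MIR4435-2HG* overlaps 5 genes on its strand and 7 on the other, the highest of the latter with 39.3 CPM on average, above the level of the host in wild-type cells.

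*MIR222HG* (ENSG00000270069; chromosome X, 45745210 to 45770274) carries *MIR221* and *MIR222*, miRNAs known to target cell cycle inhibitors. It had 38.2, 56.6 and 36.9 CPM in the 3 wild-type samples, 54.0, 47.3 and 63.8 in *AGO1* knockout, 34.1, 40.2 and 29.3 in *AGO2* knockout, 50.6, 54.5 and 61.0 in double knockout and 76.1, 67.7 and 69.6 in triple knockout samples. Wild-type replicate 2 was the highest of its line, and the triple knockout samples lay above all other samples. *MIR222HG* was called higher in that line alone (log2 fold change 0.70, standard error 0.16, adjusted p = 0.00313). *MIR31HG* (ENSG00000171889; chromosome 9, 21380073 to 21559891), with *MIR31* in an intron, had 7.64, 5.93 and 5.64 CPM in the 3 wild-type samples, 7.47, 8.29 and 9.84 in *AGO1* knockout, 9.02, 7.36 and 7.07 in *AGO2* knockout, 11.2, 9.45 and 7.99 in double knockout and 9.82, 10.8 and 10.1 in triple knockout samples. Both the double and the triple knockout samples lay above wild type. Its changes were 0.58 (adjusted p = 0.021, lost in 6 other settings) and 0.67 (standard error 0.16, adjusted p = 0.00309, kept in all).

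*DLEU2* (ENSG00000231607; chromosome 13, 49956670 to 50125720), the host of the tumor suppressor miRNAs miR-15a and miR-16-1 that is often deleted in leukemia, had 28.9, 17.3 and 25.3 CPM in the 3 wild-type samples, 27.8, 28.2 and 19.9 in *AGO1* knockout, 39.7, 41.9 and 39.9 in *AGO2* knockout, 30.1, 23.4 and 31.7 in double knockout and 34.9, 37.8 and 35.3 in triple knockout samples. The *AGO2* knockout samples were the highest, followed by the triple knockout samples, and both lay above wild type. *DLEU2* was higher in *AGO2* (log2 fold change 0.76, standard error 0.17, adjusted p = 0.00921) and triple knockout cells (log2 fold change 0.59, standard error 0.17, adjusted p = 0.0119). Without wild-type replicate 2, the lowest sample, the first value was 0.55 (adjusted p = 0.0383) and the second was no longer called (0.38, adjusted p = 0.0634). *DLEU2* overlaps 4 genes on the opposite strand, the highest with 34.9 CPM on average. *SMC4*, which carries miRNAs with the same seed, had 320 ± 26.8 CPM in *AGO2* knockout against 207 ± 63.1 CPM in wild-type cells (adjusted p = 0.087).

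*MIR600HG* and *MIR193BHG* were also called higher in triple knockout cells. *MIR600HG* (ENSG00000236901; chromosome 9, 123109494 to 123115477) had 8.18, 8.64 and 8.92 CPM in the 3 wild-type samples, 10.6, 10.3 and 10.3 in *AGO1* knockout, 8.04, 9.49 and 8.99 in *AGO2* knockout, 5.70, 7.0 and 6.89 in double knockout and 12.6, 12.2 and 9.59 in triple knockout samples. The double knockout samples were lowest and the triple knockout samples lay above wild type. It was lower in double (-0.39, adjusted p = 0.0431) and higher in triple knockout cells (0.42, adjusted p = 0.0126), and the direct comparison of these lines gave 0.82 (standard error 0.13, adjusted p = 0.000255), which was kept in every other setting, unlike the first 2 calls, which were lost in 10 and 5. The protein-coding gene *STRBP* overlaps *MIR600HG* on the same strand. *MIR193BHG* (ENSG00000262454; chromosome 16, 14301389 to 14331067) had 5.61, 5.55 and 5.82 CPM in the 3 wild-type samples, 5.54, 5.26 and 6.24 in *AGO1* knockout, 6.85, 6.0 and 7.88 in *AGO2* knockout, 6.98, 7.17 and 6.26 in double knockout and 6.33, 8.09 and 7.15 in triple knockout samples. All triple knockout samples lay above wild type, and the call (log2 fold change 0.34, standard error 0.13, adjusted p = 0.0493) was lost in 21 other settings.

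*MIR100HG* (ENSG00000255248; chromosome 11, 122028325 to 122556721), a long locus holding *MIRLET7A2*, *MIR100* and *MIR125B1*, was the lncRNA host that fell in triple knockout cells. It had 131, 163 and 126 CPM in the 3 wild-type samples, 133, 161 and 189 in *AGO1* knockout, 143, 122 and 120 in *AGO2* knockout, 116, 134 and 157 in double knockout and 87.9, 95.1 and 111 in triple knockout samples. The triple knockout samples were below all other samples. The difference was -0.52 against wild type (standard error 0.15, adjusted p = 0.0127), and it was -0.47 against double knockout cells (adjusted p = 0.0367). Without triple knockout replicate 1, the lowest sample, the first value was -0.46 and no longer called (adjusted p = 0.0519), and the second was lost in 5 settings.

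*MIR22HG* and *MIRLET7BHG* fell in both single knockouts. *MIR22HG* (ENSG00000186594; chromosome 17, 1711447 to 1717174), whose exon holds *MIR22*, had 4.95, 10.3 and 5.09 CPM in the 3 wild-type samples, 2.05, 2.45 and 2.10 in *AGO1* knockout, 1.79, 2.87 and 3.04 in *AGO2* knockout, 7.69, 3.79 and 3.10 in double knockout and 11.8, 9.14 and 12.0 in triple knockout samples. The *AGO1* and *AGO2* knockout samples were below all wild-type samples, and wild-type replicate 2 and double knockout replicate 1 stood above the others of their lines. *MIR22HG* was lower in *AGO1* (log2 fold change -1.62, standard error 0.35, adjusted p = 0.00882) and *AGO2* knockout cells (log2 fold change -1.40, standard error 0.33, adjusted p = 0.0121), and it was higher in triple than in double knockout cells (log2 fold change 1.17, standard error 0.32, adjusted p = 0.0164). Leaving out wild-type replicate 2 gave -1.19 for *AGO1* knockout and -1.0 for *AGO2* knockout, the latter no longer called (adjusted p = 0.0599). The difference between triple and double knockout was lost in 4 settings that left out a sample of either line. A protein-coding gene on the opposite strand, *WDR81*, overlaps *MIR22HG* and had 20.8 CPM on average, above every *MIR22HG* value. *MIRLET7BHG*, which spans *MIRLET7A3* and *MIRLET7B*, was also lower in both, and varied less between samples. It fell from 13.7 ± 0.194 CPM in wild-type to 8.71 ± 0.406 CPM in *AGO1* (log2 fold change -0.65, standard error 0.11, adjusted p = 0.00194) and 7.79 ± 0.696 CPM in *AGO2* knockout cells (log2 fold change -0.81, standard error 0.11, adjusted p = 0.000428), calls kept in every other setting, and was 11.5 ± 1.14 and 15.7 ± 1.48 CPM in the double and triple knockout.

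*MIR17HG*, the primary transcript of the miR-17-92 cluster and a MYC target, went the other way in the single knockouts. It rose from 11.5 ± 2.19 to 19.1 ± 1.60 CPM in *AGO1* (log2 fold change 0.73, standard error 0.18, adjusted p = 0.0215) and to 21.4 ± 2.79 CPM in *AGO2* knockout cells (log2 fold change 0.89, standard error 0.18, adjusted p = 0.0057). The first of these was lost without wild-type replicate 2 or *AGO1* knockout replicate 2 and with only the 6 samples compared, with an adjusted p of at most 0.0872. In double and triple knockout cells *MIR17HG* had 11.0 ± 1.74 and 8.91 ± 2.18 CPM, with overlap with wild type. *MIR34AHG*, whose miR-34a is a p53-induced miRNA, was called higher in *AGO1* knockout cells alone, at 7.79 ± 0.753 against 5.25 ± 0.691 CPM (adjusted p = 0.0195), and lost the call in 5 other settings. *MIR210HG*, *MIR503HG* and *MIR99AHG* were called in 0 comparisons by edgeR and by DESeq2, 4 of their 15 values having an unadjusted p under 0.05. *MIR210HG*, the host of the hypoxia-induced miR-210, was spread from 1.47 to 6.69 CPM within wild-type cells, and the other 2 had at most 35 and 11 counts in a sample, with standard errors of 0.43 and 0.46 in the triple knockout comparison, so that small changes were not detectable for them at this depth.

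**Figure D4:**
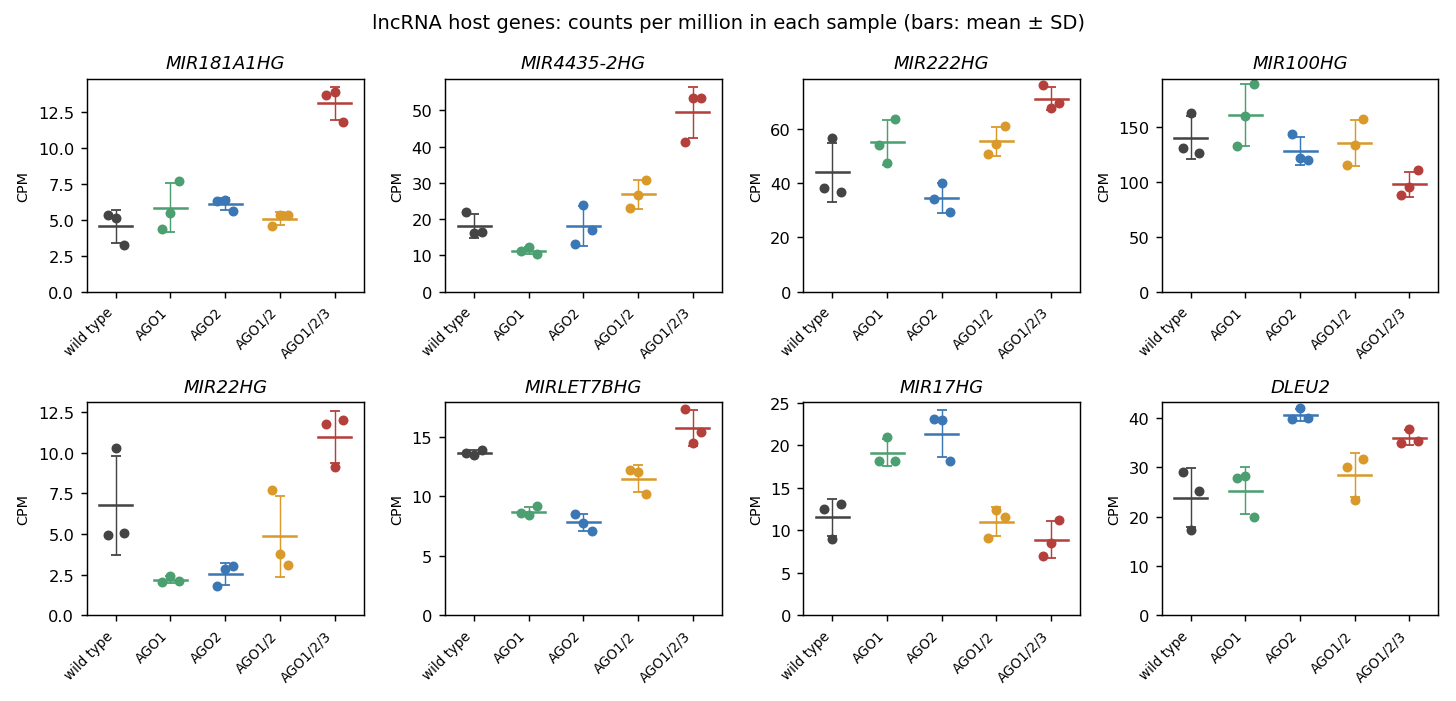
CPM of 8 lncRNA hosts in each of the 15 samples, with points for samples and bars for mean ± SD of 3 samples per line. *MIR181A1HG* and *MIR4435-2HG* peak in triple knockout cells, *MIR100HG* is lowest there, *MIR22HG* and *MIRLET7BHG* are lowest in *AGO1* and *AGO2* knockout cells, and *MIR17HG* is highest in these 2 lines.

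The annotation lists the hairpins as genes of their own, which gave a second readout within the hosts. Reads counted there come from libraries of total RNA, in which hairpin sequence still within the host transcript or its introns cannot be told apart from cut hairpins. All 63 same-strand hairpins are listed, 38 of them with at most 3 counts in every sample, and 7 passed the filter on low counts. The 18 hairpins that lie wholly within an exon, *MIR21* of the abundant host *VMP1* among them, were at 0 in every sample. This held for 1 of the 42 intronic hairpins and 1 of the 3 that span an exon boundary. The boundary hairpin *MIR221* had up to 55 counts. Zeros thus went with a position wholly within an exon, and how reads were divided between a hairpin and its host is not given in the sources used here. In *AGO1*, *AGO2* and double knockout cells 0 of these 7 were called by edgeR or DESeq2, with 1, 1 and 0 at an unadjusted p under 0.05, and 3 were called in triple knockout cells, all higher, beside 40.1% of all genes called there. *MIR454* had 7, 3 and 7 counts in wild-type and 18, 21 and 15 counts in triple knockout samples (log2 fold change 1.65, standard error 0.35, adjusted p = 0.00138), beside 1.28 for its host *SKA2*. *MIR27B*, in *AOPEP*, had 2, 9 and 8 against 26, 19 and 17 counts. With at most 9 counts in the 12 samples of the other lines, it passed the filter only through the triple knockout samples, so that its call there was favored by the filter. *MIR454* had at most 15 counts in those 12 samples, too few of which reached the level of the filter at their depth. *MIR454* thus also passed only with the triple knockout samples, and its call there was favored as well. *MIR181B1* had 13, 9 and 6 against 37, 32 and 29 counts (1.79, standard error 0.52, adjusted p = 0.012), beside 1.52 for *MIR181A1HG*. In each of these 3 the triple knockout samples lay above the wild-type samples, at low counts. The *MIR181B1* call was lost without wild-type replicate 3 (1.5, adjusted p = 0.0514), and the *MIR27B* call without wild-type replicate 1 (1.24, adjusted p = 0.0757). In *MIR100HG*, *MIRLET7A2* was lower in triple than in double knockout cells, with 23, 13 and 21 against 25, 35 and 48 counts (-1.09, standard error 0.33, adjusted p = 0.0268, lost when any of 4 samples of these lines was left out).

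**Figure D5:**
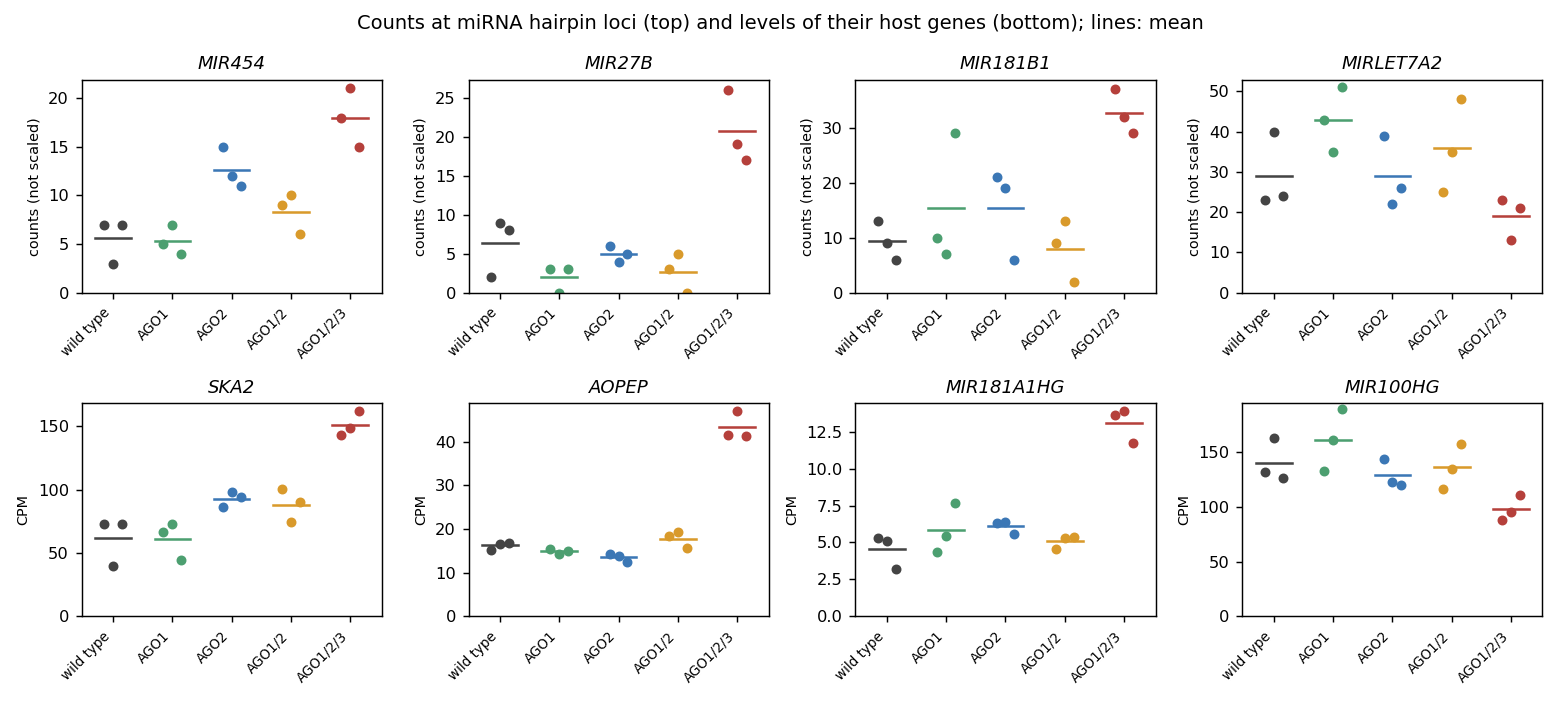
Estimated counts at 4 hairpin loci in each sample, not scaled for depth (top row), and CPM of their host genes (bottom row), with a line at the mean of 3 samples. *MIR454*, *MIR27B* and *MIR181B1* and their hosts are highest in triple knockout cells, and *MIRLET7A2* and *MIR100HG* have their lowest means there.

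AGO proteins act on mRNAs through seed matches in the 3′ UTR, so the 3′ UTR of each coding host was searched for perfect 7-base matches to the seeds of its own miRNAs, on the transcript strand only. The canonical 3′ UTRs of 19 hosts and 49 host and mature miRNA pairs were searched, and 6 pairs in 6 hosts had a match. They were *TMEM245* with miR-32-3p, *NFYC* with miR-30c-1-3p, *COPZ1* with miR-148b-5p, *AOPEP* with miR-2278, *WDR82* with let-7g-3p and *LPP* with miR-28-3p. For the other arm of the same hairpin, miR-32-5p, miR-30c-5p, miR-148b-3p and let-7g-5p each had 0 matches in their hosts. In *TMEM245* the match was CTAAATT, a heptamer present in 42.6% of 3′ UTRs of similar length. For the other matches this share was 62.5% (*LPP*), 20.9% (*WDR82*), 11.5% (*COPZ1*), 9.61% (*NFYC*) and 7.60% (*AOPEP*). Over the 49 pairs the share ran from 0.541% to 62.5%, and whether 6 matches are more or fewer than these shares give was not tested. The 3′ UTRs of *CTDSPL* and *PANK3* held 0 matches to miR-26a-5p (TACTTGA, in 23.8% of 3′ UTRs of similar length) and miR-103a-3p (ATGCTGC, in 50.3%). Whether these matches bear on the levels of the hosts was not tested.

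Position along the chromosome was compared as well, using the median log2 fold change of the other tested genes that start within 1 Mb of each host. In triple knockout cells against wild type these medians ran from -0.53 (around *PTK2*) to 0.84 (around *RCL1*), and 27 of 35 lay within 0.3 of 0. The neighbours of *CTDSPL* had a median of 0.27, those of *TMEM245* 0.25, those of *AOPEP* 0.19 and those of *MIR181A1HG* 0.23.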

How the data were processed

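RNA from HCT116 cells was sequenced as ribosomal RNA-depleted, stranded total RNA libraries read as pairs. The extraction is given as RNeasy in the study's methods and as Trizol in the labels. The submitters' processing notes name STAR 2.5.3a and Salmon 0.11.0, while the study's methods name other versions of both, and the authors deposited estimated counts per gene, of which 30.8% to 33.8% per sample were not whole. They were rounded here. The 8 eCLIP samples were not analysed here. Symbols, positions and exon lengths came from GENCODE 44 on hg38, which held 57167 of the 57875 identifiers.

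All 15 samples were fitted together in edgeR 4.0.16 (R 4.3.3) with TMM scaling, filterByExpr and the quasi-likelihood test, with Benjamini-Hochberg adjustment over 22842 genes. The biological coefficient of variation was 0.152. Other scalings, filters, DESeq2 1.42.0, a replicate term, fewer samples and each sample left out were tried, and the fit without the *AGO2* knockout samples and the canonical transcript length were added after seeing the data. Both tools were also run on simulated data with changes of at least 2-fold in triple knockout cells only. That simulation held no smaller changes, and no result here rests on it. Depth was 27709971 to 45271146 counts, and the floor of 3 counts covers counting error only.

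The members and all gene lists were chosen with earlier results of these data known. Values per sample are given for the 8 hosts of each class with the largest absolute log2 fold change among those called in triple knockout cells, and for hosts called with at least a 2-fold change elsewhere.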

Additional observations from a re-analysis of the deposited data

How the results depend on the processing

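Of the host values called, 15 of 21 in triple knockout cells, 4 of 10 in double, 4 of 8 in *AGO2*, 2 of 6 in *AGO1* knockout cells and 10 of 18 in the comparison of triple with double knockout cells were called in every setting tried, and 0 called values changed sign. Of 112 host values not called, 21 were called in some setting. Requiring a 2-fold change left 0, 0, 2, 6 and 2 protein-coding and 1, 1, 0, 2 and 2 lncRNA hosts in the *AGO1*, *AGO2*, double, triple and triple against double comparisons. Scaling by total counts gave 2 protein-coding hosts in *AGO1* and 2 in *AGO2* knockout cells and 1 lncRNA host in double knockout cells. Fitting only the 6 samples compared, which leaves fewer samples to estimate the spread, gave 0, 1 and 4 protein-coding hosts in *AGO1*, *AGO2* and double and 2 and 0 lncRNA hosts in *AGO1* and double knockout cells. DESeq2 called 7 protein-coding hosts in *AGO2* knockout cells, without its share over all genes to set beside them. In double knockout cells 5 protein-coding hosts were called with no filter on low counts and 5 without the 3 *AGO2* knockout samples. The canonical transcript length put 2 lncRNA hosts among the 10 highest in place of 1. The cause of these shifts was not tested unless stated. Leaving out a sample gave 0 to 2, 1 to 6, 5 to 7, 11 to 14 and 9 to 12 protein-coding hosts and 3 to 5, 3 to 6, 1 to 3, 6 to 10 and 3 to 7 lncRNA hosts in the same order of comparisons. Samples sharing a replicate number did not deviate together (mean correlation -0.00669, from -0.218 to 0.291), so the number does not pair them. With the replicate block the counts were 1, 3, 6, 12 and 12 protein-coding and 5, 4, 1, 7 and 6 lncRNA hosts. Except for the 2-fold rule, the share of all genes called was not computed for these other settings, here or above. Whether the hosts moved more than genes at large was therefore not tested. Hosts with few counts, such as *MIR99AHG* and *MIR503HG*, were too shallow for small changes to be detectable.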

Other observations

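A further 36 symbols of known miRNA hosts were looked up, of which 35 were matched and 28 passed the filter on low counts. In triple knockout cells 8 of these were higher and 7 lower, against 40.1% of all genes called. The genes named next were chosen after their values were seen. *MIR1915HG* had 3.90 ± 0.901 CPM in wild-type, 16.1 ± 2.63 CPM in double and 21.1 ± 2.88 CPM in triple knockout cells (log2 fold change 2.04 and 2.43, adjusted p = 1.66e-06 and 5.85e-08 by edgeR). *DNM3*, a dynamin, went from 4.99 ± 2.14 to 22.6 ± 3.36 CPM in triple knockout cells (log2 fold change 2.18, adjusted p = 7.06e-06). *GABRE*, a subunit of the GABA-A receptor, was lower in double (-1.13) and higher in triple knockout cells (1.55), at 1.32 ± 0.0792 and 8.47 ± 1.35 against 2.90 ± 0.344 CPM.

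*MIR23AHG*, whose miR-23a and miR-27a resemble the miRNAs of *AOPEP*, was lower in all 4 lines, at 8.14 ± 3.67 CPM in wild-type and 3.23 ± 0.455, 2.49 ± 0.177, 4.94 ± 0.743 and 5.08 ± 0.190 CPM in *AGO1*, *AGO2*, double and triple knockout cells. Its call in double knockout cells was lost in 16 other settings and that in triple knockout cells in 5. In both lines the samples overlapped with wild type. Without wild-type replicate 1, the highest wild-type sample, the log2 fold changes were -0.32 (adjusted p = 0.292) and -0.29 (adjusted p = 0.237), against -0.72 and -0.68 with all samples. *MIR9-1HG* was lower in triple knockout cells (4.76 ± 0.148 against 12.3 ± 1.26 CPM, log2 fold change -1.37, adjusted p = 8.23e-07). *SLIT2*, encoding a secreted guidance protein, had its lowest level in double knockout cells, at 0.733 ± 0.0525 against 4.77 ± 0.0986 CPM (log2 fold change -2.70, adjusted p = 1.28e-06).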
